A study of Saccharomyces cerevisiae with 36 samples.

Results

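Lysine biosynthesis in the budding yeast Saccharomyces cerevisiae was followed through the yeast metabolic cycle with 9 genes, LYS1, LYS2, LYS4, LYS5, LYS9, LYS12, LYS14, LYS20 and LYS21, chosen by gene symbol. All 9 were measured among the 5656 genes with a symbol, each by 1 probe set of its own. The cells grew in continuous culture, and 36 Affymetrix arrays covered 3 successive cycles with 1 array at each of 12 positions about 25 min apart. The 3 arrays of a position, 1 from each cycle, formed a group. The labels used here give no strain, genotype, medium or treatment. They name no separate cultures either, so a p-value reflects only how these arrays scatter, which may be technical. Values are probe set intensities on a scale where the median of each array is 1, and the number of arrays limits their precision. RNA came from whole samples of the culture, so that fewer cells with a transcript and less of it per cell cannot be told apart.

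Yeast makes lysine through the alpha-aminoadipate pathway, which fungi use and most bacteria and plants do not. Homocitrate synthase, encoded by LYS20 and LYS21, joins acetyl-CoA to 2-oxoglutarate; homoaconitase (LYS4) and homoisocitrate dehydrogenase (LYS12) carry the carbon chain on to 2-oxoadipate in the mitochondrion. After transfer of an amino group, the aminoadipate reductase Lys2, which must first be activated by the phosphopantetheinyl transferase Lys5, forms the semialdehyde, and the saccharopine dehydrogenases Lys9 and Lys1 complete lysine. Lys14 is a transcription factor that activates pathway genes when the semialdehyde is present, and lysine inhibits homocitrate synthase.

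The 7 enzyme genes other than LYS5 rose together into a burst at positions 8 and 9 and fell together at position 2, LYS5 ran opposite to them, and LYS14 did not pass the test. In all 21 combinations of enzyme gene and cycle the highest array was at position 8 or 9, against 35.5% of such combinations over all genes. In 16 of the 21 the lowest array was at position 2, against 12.9%. A cosine of 12 intervals was fitted to every gene with limma, and 8 of the 9 passed (adjusted p under 0.05), against 78.8% of all genes. The same 8 had a swing, the fitted peak-to-trough difference, of at least 1 log2, that is 2-fold, against 38.1% of all genes, and 5 had at least 2 log2, against 10.6%. The median swing of the 9 genes was 2.01 log2, and that of all 5656 genes was 0.77.

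**Figure D1:**
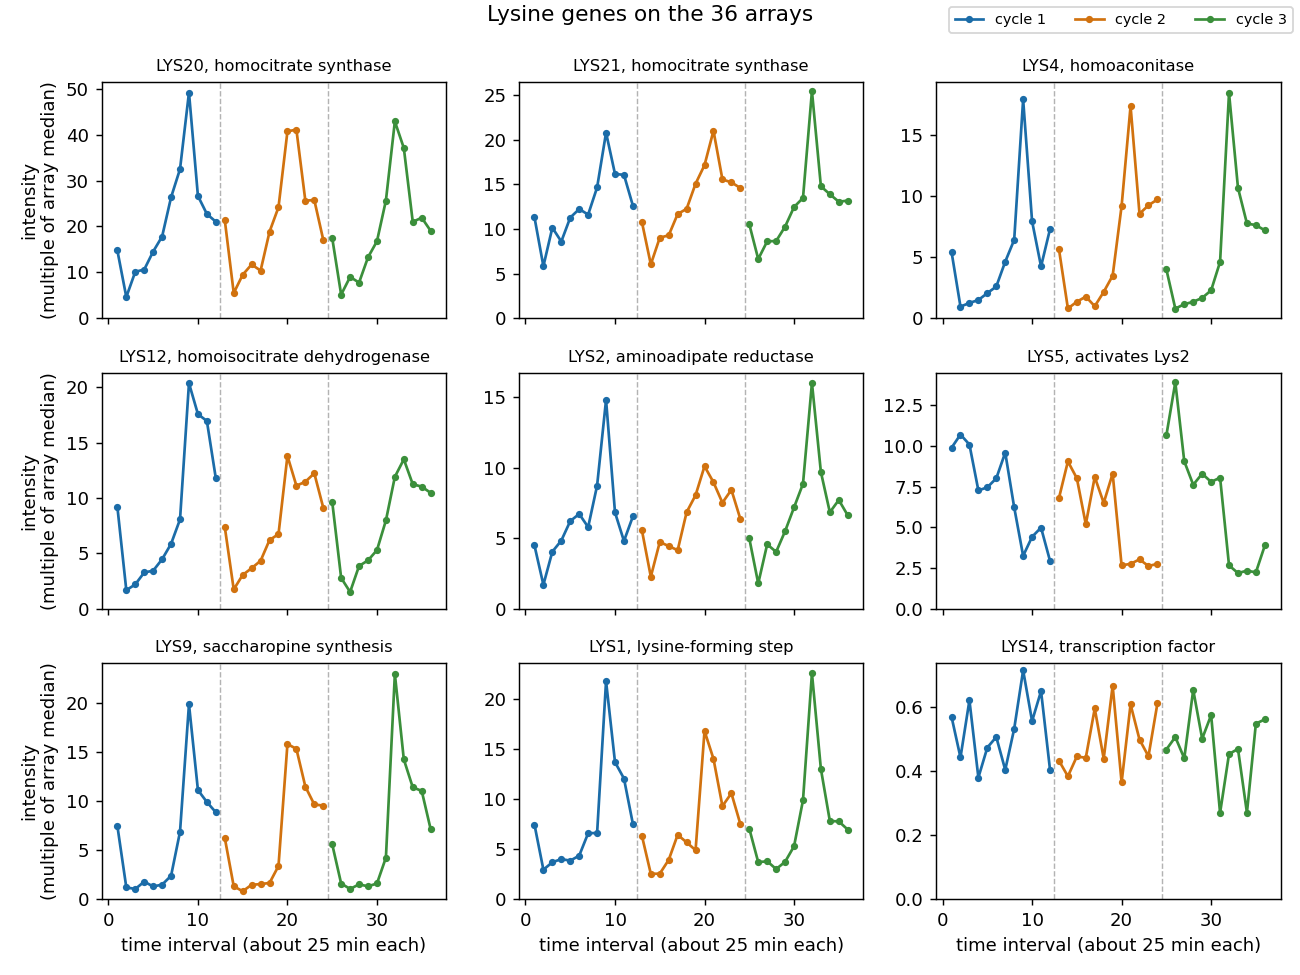
Intensity of the 9 lysine genes (vertical axes, multiples of the array median, from 0) on the 36 arrays in time order (horizontal axes, intervals of about 25 min), with 1 point per array and a colour per cycle; dashed lines separate the cycles. The 7 enzyme genes other than LYS5 have their highest array at position 8 or 9 in every cycle, LYS5 is low there, and LYS14 stays between 0.269 and 0.713.

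LYS9, the saccharopine dehydrogenase that joins glutamate to the semialdehyde, had the largest swing of the 9 genes, 3.85 ± 0.25 log2 (SE). Its intensity was 1.05, 0.817 and 1.05 at position 3 in cycles 1, 2 and 3, and 19.9, 15.3 and 14.3 at position 9. The lowest array of position 9 lay above every array of positions 2 to 7, where LYS9 never exceeded 4.24. The mean rose from 0.971 ± 0.133 (SD, n = 3) at position 3 to 16.5 ± 2.98 at position 9, 17.0-fold. Positions 3 and 9 are those of lowest and highest mean of LYS9, picked from these values. How many of all genes have arrays separated in this way was not counted.

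LYS4, the homoaconitase, was next, with a swing of 3.35 ± 0.26 log2 (SE). At position 2 it was 0.964, 0.811 and 0.801, and at position 9 it was 17.9, 17.4 and 10.7. The 2 positions, those of lowest and highest mean of LYS4 and picked from these values, were far apart in intensity in every cycle. The ratio of the highest to the lowest array was 18.6, 21.4 and 23.0 in cycles 1, 2 and 3. LYS12, the next enzyme of the mitochondrial part, swung by 2.50 ± 0.21 log2. Its mean was 2.07 ± 0.622 (SD, n = 3) at position 2 and 15.0 ± 4.81 at position 9, and it remained at 13.4 ± 3.59 and 13.4 ± 3.13 at positions 10 and 11.

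LYS1, which releases lysine from saccharopine, swung by 2.01 ± 0.20 log2 (SE). Its 3 arrays at position 2 were 2.95, 2.54 and 3.69, and those at position 9 were 21.7, 14.0 and 13.0, with no overlap. LYS2, the aminoadipate reductase, swung by 1.56 ± 0.19 log2. It stood at 1.71, 2.28 and 1.80 at position 2, and position 8 had 8.73, 10.1 and 16.0. These values of LYS2 did not overlap either, and its lowest array outside position 2 was 4.03. For both genes the 2 positions are those of lowest and highest mean, picked from these values. How many of all genes are separated in this way was not counted.

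LYS20 and LYS21 encode isoenzymes of homocitrate synthase, the step that commits carbon to lysine. LYS20 was 4.65, 5.52 and 5.17 at position 2 and 49.1, 41.1 and 37.1 at position 9. LYS21 was 5.84, 6.04 and 6.64 at position 2 and 20.8, 21.0 and 14.8 at position 9. Both genes were lowest at position 2 in every cycle, but LYS20 covered the larger range, 8.30-fold between position means against 3.09-fold.

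The swing was 2.16 ± 0.18 log2 (SE) for LYS20 and 1.13 ± 0.12 for LYS21, with fitted peaks at positions 8.88 and 8.90. The difference of their log2 values itself followed the cycle, with a swing of 1.03 log2 and a peak at position 8.86 (permutation p = 1e-05, adjusted p = 1e-05 over 36 pairs of lysine genes, 100000 permutations of positions within cycles, the smallest p they can give). In cycles 1, 2 and 3 that swing was 1.15, 0.912 and 1.05. On these probe sets LYS20 thus rose further than LYS21 towards the burst and fell further after it. Levels of different probe sets were not compared, and whether the 2 probe sets respond alike to their transcripts was not tested. A further probe set that matches both genes gave 6.78, 8.79 and 7.11 at position 2 and 42.2, 29.0 and 31.1 at position 9, and its swing was 1.47 log2, between those of the 2 genes.

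**Figure D2:**
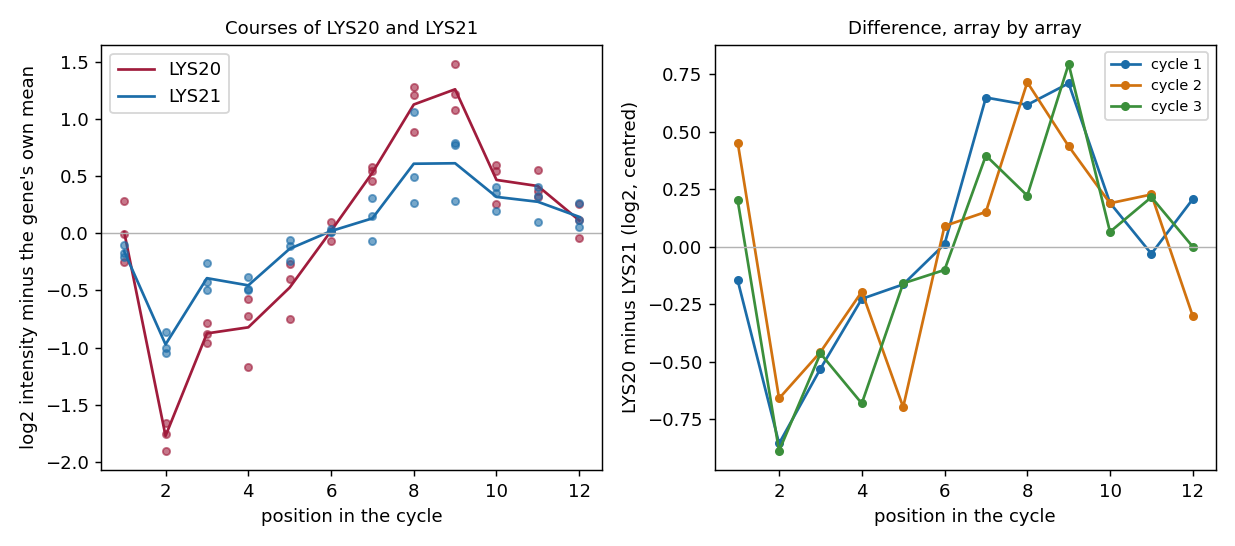
Left, log2 intensity of LYS20 and LYS21 minus each gene's own mean over 36 arrays, by position in the cycle, with 1 point per array and lines through the means of 3 arrays. Right, the difference LYS20 minus LYS21 on the log2 scale, centred on 0, with a line per cycle; it is lowest at position 2 in cycles 1 and 3, is above 0 at positions 7 to 9 in every cycle, and its fitted swing is 1.03 log2.

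LYS5, whose product attaches the cofactor that Lys2 needs, had the opposite course. Its intensity was 10.7, 9.06 and 13.9 at position 2, where the other enzyme genes were at or near their lowest, and 3.26, 2.76 and 2.19 at position 9. The groups did not overlap, and the mean fell from 11.2 ± 2.47 (SD, n = 3) to 2.74 ± 0.532. They are the positions of highest and lowest mean of LYS5, picked from these values, and such separation was not counted over all genes. The fitted peak was at position 3.78 with a swing of 1.72 ± 0.23 log2 (SE, adjusted p = 1.5e-07 in limma). LYS5 stayed low to position 12, with 2.95, 2.76 and 3.89 there, and rose by 1.48 ± 0.28 log2 to position 1 (adjusted p = 0.00051).

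LYS2 and the gene of its activator, LYS5, had a Pearson correlation of -0.67 over the 36 arrays, a description of series that share the cycle. The swing of their log2 difference was 3.10 (permutation p = 1e-05, adjusted p = 1e-05). The mean of 24 bacterial control probe sets, none of them a yeast gene, was also highest near this time, at position 3.40, with a swing of 0.22 log2, and its part in the course of LYS5 was not tested. LYS5 was the 1 lysine gene with an added component of period 6 intervals, against 12.4% of all genes (0.76 log2, adjusted p = 0.0264 in limma). That call was lost when any 1 of the 3 cycles was left out. It was also lost without the array of position 1 or 7 of cycle 1, position 4 of cycle 2 or position 1 of cycle 3, and LYS12 passed as well without position 9 of cycle 1.

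LYS14, the activator of the pathway, was dim and had no detectable 12-interval course. Its mean intensity of 0.496 lay at the 13.7th percentile of all genes, and no detection calls were used here. The lowest, median and highest of its 36 arrays were 0.269, 0.485 and 0.713. The fitted swing was 0.06 ± 0.15 log2 (SE, adjusted p = 0.935 in limma), and position means ranged from 0.441 ± 0.151 (SD, n = 3) to 0.596 ± 0.123. At this brightness a course of its transcript smaller than that spread could not be seen.

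The fitted peaks of the 7 enzyme genes lay between positions 8.51 and 9.94; of all genes, 24.2% passed the test with a peak from position 8 to 11. The same window held 8 of 11 branched-chain, 4 of 7 histidine and 0 of 7 arginine synthesis genes, so it is shared with other pathways. Fitted in each cycle, the peak was at position 8.53 ± 0.27 (SD, n = 3 cycles) for LYS2, 8.89 ± 0.093 for LYS20, 8.91 ± 0.23 for LYS21 and 9.36 ± 0.40 for LYS1. LYS4 and LYS12 followed with 9.61 ± 0.24 and 9.61 ± 0.26, and LYS9 was the latest at 9.94 ± 0.21. The ranges of neighbours in this order overlapped over cycles. The fitted peak of LYS2, at 8.33, 8.83 and 8.42, was earlier than that of LYS9, at 10.2, 9.87 and 9.77, in each cycle. A fitted peak reflects the whole course: the highest array of both genes was at position 9, 8 and 8 in cycles 1, 2 and 3. The order of fitted peaks does not follow the order of the reactions, since LYS2 acts after LYS4 and LYS12.

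**Figure D3:**
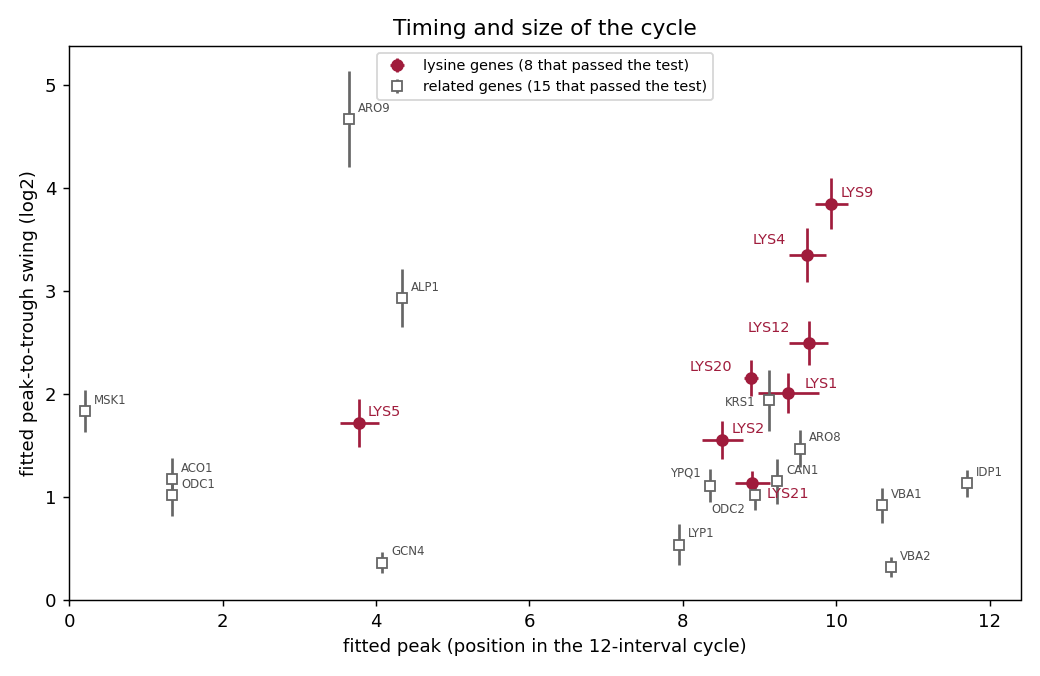
Fitted peak (horizontal axis, position in the 12-interval cycle) against fitted swing (vertical axis, log2) of the 8 lysine genes and 15 related genes that passed the test; vertical bars are the SE of the swing and horizontal bars, for lysine genes, the SD of the peak over 3 cycles. The 7 enzyme genes other than LYS5 lie between positions 8.51 and 9.94, and LYS5 lies at 3.78.

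All 36 pairs of lysine genes differed in the period-12 course of their log2 difference (permutation test, adjusted p under 0.05). A difference in size, in timing or in both can give this. How many pairs drawn from all genes differ in this way was not counted. Since 78.8% of all genes followed the cycle themselves, the count is not particular to lysine genes. Of the pairs, 21 were among the 7 enzyme genes. The others hold LYS5 or LYS14, whose fitted courses were already unlike those of the enzyme genes. In every one of 9 alternative settings, 30 of the 36 pairs differed. The 6 that did not were all among the 7 enzyme genes: LYS1 with LYS2, LYS12 and LYS20, LYS4 with LYS9 and LYS12, and LYS2 with LYS21. The largest difference among the 7 enzyme genes was between LYS9 and LYS21, with a swing of 2.94 log2, closely followed by LYS2 and LYS9 with 2.91. The permutations treat the arrays of a cycle as exchangeable, although neighbouring positions are related in time.

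The genes differed in how much of their rise came before the burst. In each cycle the log2 rise from position 2 to the higher of positions 8 and 9 was taken as the whole, and the part reached by position 7 as its share, a measure chosen after the values were seen. That share was 73.5%, 73.6% and 75.7% in cycles 1, 2 and 3 for LYS20, and 23.9%, 37.6% and 36.2% for LYS9. The shares of the 2 genes did not overlap. LYS20 stood at 16.8 to 18.9 at position 6, against its own 4.65 to 5.52 at position 2. LYS9 did not exceed 1.79 at positions 2 to 6, against its own 1.21 to 1.60 at position 2. Its lowest array was at position 3 in each cycle, after the start of the measure. LYS2 had a share of 71.2% ± 14.3 (SD, n = 3), LYS12 of 60.5% ± 9.26, LYS21 of 60.0% ± 11.5, LYS4 of 51.9% ± 4.31 and LYS1 of 42.9% ± 10.1. These 5 genes lay between LYS20 and LYS9, with ranges over cycles that overlap among neighbours.

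**Figure D4:**
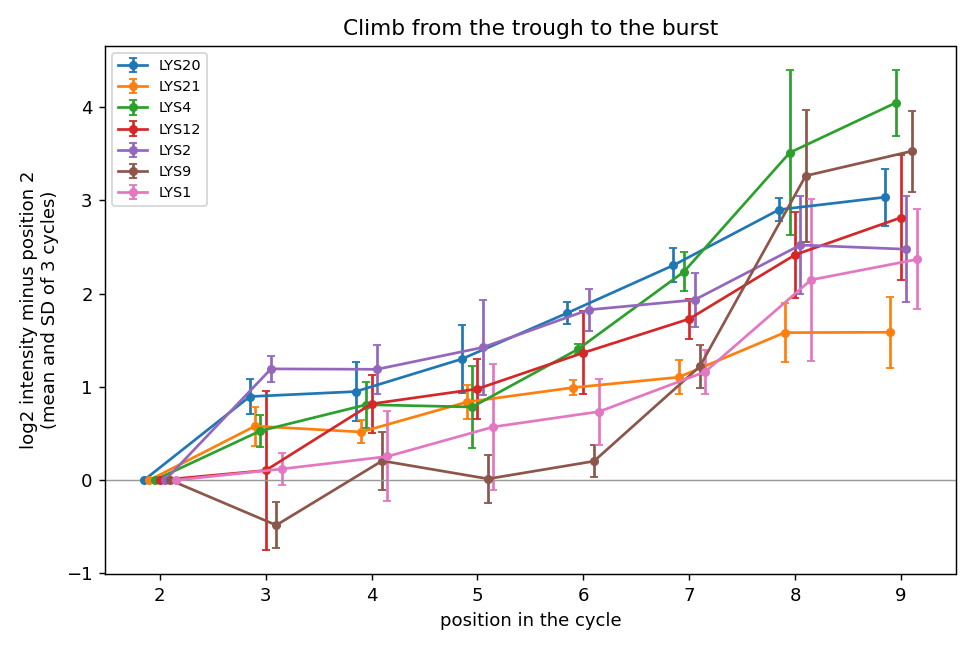
Log2 intensity minus that of position 2 in the same cycle (vertical axis) for the 7 enzyme genes at positions 2 to 9 (horizontal axis), as the mean of 3 cycles with bars of 1 SD; points are shifted sideways for legibility. The mean of LYS20 is higher at each position from 3 to 9 than at the one before. LYS2 steps up from position 2 to 3 and is level to position 4. LYS9 is still near 0 at position 6 and had reached 32.6% of its rise by position 7, against 74.2% for LYS20.

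Comparing each position with the one before it showed where the changes were concentrated. Of 108 combinations of lysine gene and step, 21 passed in limma, with adjustment over all genes within each step. At the step from position 1 to 2, 7 of the 9 genes fell, all of them the enzyme genes other than LYS5, against 10.2% of all genes. LYS4 fell by 2.47 ± 0.29 log2 (SE) and LYS9 fell by 2.18 ± 0.26. LYS12 fell by 2.08 ± 0.25 and LYS20 fell by 1.78 ± 0.17. LYS2 fell by 1.36 ± 0.22, LYS1 fell by 1.18 ± 0.31 and LYS21, the least of the 7, fell by 0.81 ± 0.16 (adjusted p = 0.00047), and LYS5 did not pass at this step. These 7 calls stayed at 7 without cycle 1 and without cycle 3. They became 5 without cycle 2 and 2 with cycle 1 moved back by 1 interval. In these 2 settings the calls over all genes at this step, in both directions, went from 1041 to 309 and 232.

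At the next step, from position 2 to 3, 3 genes rose, against 1.34% of all genes. LYS2 rose by 1.19 ± 0.22 log2 (adjusted p = 0.0021), LYS20 by 0.90 ± 0.17 (adjusted p = 0.0022) and LYS21 by 0.58 ± 0.16 (adjusted p = 0.046). These 3 calls became 0 without cycle 2, without cycle 3 and with cycle 1 moved back by 1 interval, where the calls over all genes at this step, in both directions, went from 156 to 0, 22 and 1. LYS9 was lower at position 3 than at position 2 in each cycle, by 0.20, 0.66 and 0.59 log2, and did not pass. The difference between these genes at this step was not tested on its own. No lysine gene passed at the 4 steps from position 3 to 7, at which the counts over all genes were 0, 3, 2 and 0.

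From position 7 to 8, 7 genes rose, against 16.6% of all genes, and LYS5 fell, against 12.5%. LYS9 rose by 2.04 ± 0.26 log2 (adjusted p = 3.1e-05), LYS4 by 1.28 ± 0.29 and LYS1 by 0.99 ± 0.31, while LYS5 fell by 1.27 ± 0.28. From position 9 to 10, LYS20 fell by 0.79 ± 0.17 and LYS4 by 0.88 ± 0.29, against 7.55% of all genes. LYS5 was the 1 lysine gene that rose from position 12 to 1, against 8.17%. In the remaining directions and steps no lysine gene passed in limma. Of all genes, 3.16% fell to position 1, 8.24% rose to position 2 and 1.41% fell to position 3. At position 5, 0.0177% rose and 0.0354% fell, and at position 6, 0.0354% fell. At position 9, 11.7% rose and 10.5% fell, and 6.26% rose to position 10. At position 11, 0.23% rose, and at position 12, 0.124% rose and 0.0177% fell. Without cycle 2 the 21 calls became 6, and those from position 7 to 8 became 0 for the lysine genes and for all genes; without cycle 3 they became 12 and 1, with 1 among all genes.

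Longer contrasts were added after the values were seen. From position 2 to 7 the 7 enzyme genes rose, against 12% of all genes (15.7% fell, none of them a lysine gene), by 1.10 ± 0.16 log2 (LYS21) to 2.30 ± 0.17 (LYS20). From position 7 to 9 those 7 rose as well, against 22.8%, by 0.48 ± 0.16 (LYS21) to 2.31 ± 0.26 (LYS9). LYS5 fell by 1.66 ± 0.28 log2 between positions 7 and 9, against 18% of all genes (adjusted p = 2.6e-05), and did not pass between positions 2 and 7 (adjusted p = 0.386).

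At position 8, with 1 array per cycle, all 7 enzyme genes were lowest in cycle 1. The fitted peak of cycle 1 was the latest of the 3 cycles for LYS1, LYS9, LYS12 and LYS21, and not for LYS2, LYS4 and LYS20. That of LYS9 was at 10.2 in cycle 1 and 9.87 in cycle 2. The peak of LYS2 was at 8.33 and 8.83 in these cycles, and that of LYS4 at 9.52 and 9.89. A common delay of cycle 1 was not tested. At position 8 LYS9 stood at 6.88 in cycle 1, and at 15.8 and 23.0 in cycles 2 and 3. LYS1 was 6.60 at that position in cycle 1, and 16.8 and 22.5 in the others. LYS5 mirrored this, with 6.24 at position 8 of cycle 1 and 2.67 and 2.67 in cycles 2 and 3. In cycle 1 the highest array of all 7 enzyme genes was that of position 9, and in cycle 3 it was that of position 8 for 6 of them and position 9 for LYS12. In cycle 2 it was position 8 for LYS1, LYS2, LYS9 and LYS12, and position 9 for LYS4, LYS20 and LYS21.

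**Figure D5:**
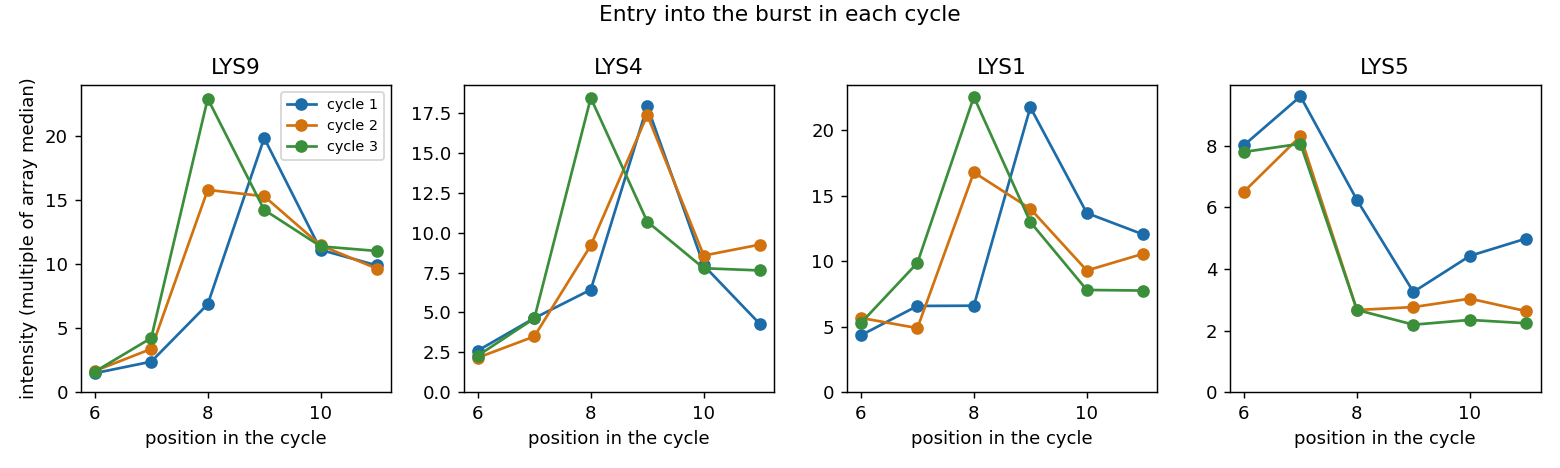
Intensity (vertical axes, multiples of the array median, from 0) of LYS9, LYS4, LYS1 and LYS5 at positions 6 to 11 (horizontal axes), with a line per cycle and 1 array per point. In cycle 1 the 3 enzyme genes LYS9, LYS4 and LYS1 reach their highest array at position 9, and LYS5 is still at 6.24 at position 8, where it is 2.67 in both other cycles.

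No lysine gene differed in mean level between cycles in limma, against 0.053% of all genes. At an unadjusted p under 0.05 in limma LYS5 alone passed, and its adjusted p was 0.591. No lysine gene differed in swing or timing between cycles by the interaction test, against 0.0354%, and 0 had an unadjusted p under 0.05 in limma; on simulated data this test recovered 21% of differences of 1 log2 in swing. The swing of LYS5 was 1.24, 1.65 and 2.31 log2 in cycles 1, 2 and 3, the widest relative spread among the 8 genes that passed.

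Genes around the pathway were spread over the cycle. Of 19 related genes listed for their role in lysine synthesis, transport or use, 17 were measured, 15 passed the test for a 12-interval course, against 78.8% of all genes, and 11 of these swung by at least 1 log2, against 38.1%. Their median swing was 1.11 log2. GDH1, which makes the glutamate used as amino donor, and MKS1, a repressor in which mutations raise lysine synthesis, did not pass, with swings of 0.32 ± 0.12 and 0.24 ± 0.13 (SE). A cosine of 12 intervals can miss a narrow burst. In cycles 1, 2 and 3 the highest array of MKS1 was at positions 9, 9 and 8, and that of GDH1 at 9, 9 and 11. The mean of GDH1 was lowest at position 7, with 24.1 ± 0.973 (SD, n = 3), and highest at position 9, with 43.7 ± 10.2.

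Among them, the aminotransferase that forms aminoadipate moved like the enzyme genes. ARO8, which encodes it, swung by 1.47 ± 0.18 log2 with a peak at position 9.53, and stood at 4.54, 4.47 and 5.93 at position 2 and 26.9, 16.3 and 15.4 at position 9. ARO9, a related aminotransferase that acts in aromatic amino acid breakdown, swung by 4.67 ± 0.46 and peaked at position 3.65. The oxodicarboxylate carriers, which move 2-oxoadipate across the inner mitochondrial membrane, lay apart too: ODC2 peaked at position 8.94 with a swing of 1.02 ± 0.15, and ODC1 at position 1.35 with 1.02 ± 0.21. Neither pair was tested for its difference. Of the mitochondrial enzymes that handle related tricarboxylic acids, ACO1, aconitase, peaked at position 1.34 with 1.18 ± 0.20, and IDP1, isocitrate dehydrogenase, at position 11.7 with 1.14 ± 0.13.

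Genes of transport and use peaked at several times, some of them within the range of the enzyme genes. CAN1, a permease for basic amino acids, peaked at position 9.23 (1.16 ± 0.22 log2), LYP1, the lysine permease, swung by 0.54 ± 0.20 with a peak at position 7.95, and YPQ1, a vacuolar transporter of basic amino acids, peaked at position 8.35 (1.11 ± 0.16). The vacuolar transporters VBA1 and VBA2 peaked at positions 10.6 and 10.7, with swings of 0.92 ± 0.17 and 0.32 ± 0.10. ALP1, an arginine permease, peaked at position 4.34 with 2.94 ± 0.28, on a dim probe set. MSK1, the mitochondrial lysyl-tRNA synthetase, peaked just after position 12, at 0.20, with 1.84 ± 0.21. The cytosolic enzyme KRS1 peaked at position 9.12 with 1.94 ± 0.30, but its probe set was dim, between 0.0254 and 2.45 over the 36 arrays. GCN4, the activator of many amino acid synthesis genes, swung by 0.37 ± 0.10 with a peak at position 4.08. The mean intensity of GCN4 was lowest at position 11, with 33.8 ± 3.49 (SD, n = 3), and highest at position 3, with 52.0 ± 1.06. Of the genes of transport and use, CAN1, LYP1, YPQ1 and KRS1 had their highest array at position 8 or 9 in every cycle, and the rest did not.

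The genes outside the pathway whose log2 values were most like the mean standardised course of the 7 enzyme genes were IMD3, RPS26B, YEF3, THI73, RPL6B, SHM2, RPL13A, CTP1, MET16 and SND3. Pearson correlations over the 36 arrays ran from 0.966 for IMD3, an IMP dehydrogenase of guanine nucleotide synthesis, to 0.947 for SND3. CTP1, the mitochondrial citrate carrier, swung by 3.59 ± 0.29 log2, and SHM2, the cytosolic serine hydroxymethyltransferase, by 2.92 ± 0.23. The arrays share the cycle, so such values describe likeness of course only. The closest gene was SAM1, an S-adenosylmethionine synthetase, for LYS9 (0.968), MET8 for LYS4 (0.961), BAT1, the mitochondrial branched-chain aminotransferase, for LYS12 (0.943) and ILV3 for LYS2 (0.934). It was EFB1, an elongation factor subunit, for both LYS20 (0.935) and LYS21 (0.948), SND3 for LYS1 (0.946), RGI2 for LYS5 (0.922) and VMA8 for LYS14 (0.524).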

How the data were processed

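The authors deposited linear intensities, 1 per probe set, with a median of 1 on every array; the sources used here do not name the software or the way probes were summarised. The platform annotation, which can be old, gave 1 symbol to 6504 of 9335 probe sets and several to 328; 2443 were unlisted and 60 were controls. A RefSeq gene table served to bring symbols up to date, and each gene was read from its probe set with the highest mean. Values were taken as log2(value + 0.0516), the 10th percentile of positive values, so folds of dim genes are understated. All tests except that of pairs were limma 3.58.1 fits in R 4.3.3 over 5656 genes, with the trend option of its moderation and p-values adjusted by Benjamini-Hochberg, called at 0.05. Pairs were permuted in Python 3.11.15 (numpy 2.4.6); matplotlib 3.10.9 drew the figures. On simulated data for 5656 genes with independent noise, 96% of swings of 1 log2 and 39% of swings of 0.5 log2 were recovered by the period-12 test. Arrays of 1 position had a median correlation of 0.976 across genes, with a lowest value of 0.833. The members and lists were chosen with earlier results of these data known. The text names all 9 lysine genes, the 19 related genes as far as described, the 10 genes most like the 7 enzyme genes and the 1 most like each member, all above the dimmest 25% of genes, and the largest and smallest swing of 3 other lists. Alternatives covered scaling, pseudocount, dim genes, probe choice, error model, cycles and arrays left out, and cycle as a block.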

Additional observations from a re-analysis of the deposited data

How the results depend on the processing

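The count of 8 lysine genes following the cycle stayed at 8 in each of 48 alternatives, and the 0 genes that differed between cycles in level or in swing stayed at 0 in 47 each. Lysine genes with a period-6 component numbered 2 under quantile normalization and under division by the trimmed mean, where LYS12 joined LYS5, 0 without any 1 of the 3 cycles, and 0 to 2 when an array was left out. The 21 steps numbered 10 with the positions of cycle 1 moved back by 1 interval and 6 to 20 when a cycle was left out; no step changed direction, and 47 of 252 recomputed steps lost their call; the cause was not tested. Pairs with different courses numbered 32 to 36 of 36 and related genes 13 to 16 of 17. Cycle numbers were taken as a replicate block: 8 genes and 20 steps passed with it, LYS21 from position 2 to 3 being lost (adjusted p = 0.052). Deviations from position means within a cycle had a median correlation of 0.017, with values from -0.68 to 0.47 and 35.4% of pairs over 0.1. A median near 0 therefore does not show that the arrays of a cycle are independent. The trimmed mean moved the median gene of an array by -0.17 to 0.15 log2. Moving cycle 1 for the tests between cycles was added after seeing the data. Brightness over background could not be judged without detection calls.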

Other observations

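Other amino acid pathways were described beside the lysine genes with the same fit, as counts and medians with no test between lists. Arginine synthesis (7 of 9 listed genes measured) had 7 genes with a 12-interval course and a median swing of 1.08 log2, and 0 with a swing of at least 2 log2. CPA1, a carbamoyl phosphate synthetase subunit, had the largest swing, 1.80 ± 0.16 (SE), with its peak at position 5.53, and ARG2 the smallest, 0.51 ± 0.15 at position 7.34. ARG4, argininosuccinate lyase, was highest at position 7 in each cycle, with a mean of 33.3 ± 2.13 (SD, n = 3), and lowest at position 9 in each cycle, with 6.28 ± 1.38; it was named after its values were seen. At position 9, where LYS20 and LYS4 had their highest means, ARG4 was therefore at its lowest.

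Histidine synthesis (7 genes) had 7 with a course and a median swing of 1.04 log2, led by HIS1, the enzyme of its first step, with 2.10 ± 0.19 (SE) at position 8.58, and the smallest was HIS5 with 0.59 ± 0.18. Of 11 branched-chain genes 10 passed, with a median swing of 1.42 log2. BAT1, the mitochondrial aminotransferase, led them with 2.35 ± 0.21 at position 9.84, and ILV6 had 0.28 ± 0.12 and did not pass. BAT2, the cytosolic isoenzyme, had its peak at position 2.98 with 1.81 ± 0.18, chosen after its values were seen. The medians stand against 2.01 log2 for the 9 lysine genes and 0.77 for all genes, of which 78.8% passed.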
